A study of Homo sapiens with 6 samples.

Results

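PRUNE2 and PCA3 lie on opposite strands of one locus on human chromosome 9 and were compared between C4-2B parental cells and C4-2B enzalutamide resistant cells by RNA-Seq. Both genes were picked by symbol out of the 58024 genes of the expression table. PRUNE2 was chosen because its level in the same libraries was far lower in resistant cells, and PCA3 because it lies within PRUNE2. Their levels in this comparison are therefore given as a description, without a test. C4-2B is a castration-resistant human prostate cancer cell line derived from LNCaP cells through the C4-2 subline grown in castrated nude mice. Enzalutamide is an antiandrogen drug. The resistant cells (n = 3 libraries) had been passaged through rising enzalutamide from 1 to 20 µM for at least 6 months and were then held in 5 µM. The parental cells (n = 3 libraries) were carried alongside in the vehicle, dimethyl sulfoxide, whose concentration differs between the labels and the study's methods. RNA extraction is described for cells under 10 µM enzalutamide in a sentence that names both kinds of cells, so whether parental cells were also exposed cannot be told from the sources. The resistant cells came from a single selected population, and nothing in the labels says that the libraries of a group were separate cultures.

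PRUNE2 encodes a large protein with a BCH domain, a lipid-binding fold shared with BNIP2, and such proteins bind small GTPases and their regulators. PRUNE2 is described as a suppressor of RhoA signalling and of cell migration and is best known in brain and prostate. PCA3 is a long non-coding RNA transcribed antisense within a PRUNE2 intron. It is known for its high level in prostate tumours and is read out in urine as a ratio to KLK3, the mRNA of prostate-specific antigen. Pairing of PCA3 with unspliced PRUNE2 RNA, and editing of that duplex by ADAR enzymes, has been proposed as a way in which PCA3 lowers PRUNE2. PCA3 is also described as androgen responsive.

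On GRCh38, in GENCODE v44, PRUNE2 (ENSG00000106772) spans chr9:76611376-76906114 on the minus strand, and its canonical transcript (ENST00000376718) has 19 exons and 12612 bases. The PCA3 gene (ENSG00000225937) spans chr9:76691980-76863307 on the plus strand in that annotation, with 18 transcripts. The 4-exon PCA3 transcript (ENST00000412654), chr9:76764436-76787569 and 3922 bases long, lies wholly inside intron 6 of the canonical PRUNE2 transcript, which is 109910 bases long. None of its exons overlaps a PRUNE2 exon. Some of the other PCA3 transcripts do have exons that overlap PRUNE2 exons. Among them is the transcript marked canonical for PCA3 (ENST00000644657), chr9:76704821-76863307 and 2374 bases long. The deposited table gives PRUNE2 and PCA3 the same merged locus, chr9:76611376-76906087. The labels name both an unstranded and a stranded library kit, and the strand setting of the quantification is not given in the sources used here. If strand was not used, reads from unspliced PRUNE2 RNA and from PCA3 cannot be told apart within the intron.

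The promoters of both genes are shown because the RNA levels of the genes are set side by side here. Each level is that of a whole gene and is not split by transcription start. The sequences are RefSeq promoter windows on GRCh38.p14, cut to the 250 bases before each transcription start and written 5′ to 3′ on the gene's own strand. Capitals mark matches, on either strand, to a GC box (GGGCGG) or a CCAAT box (CCAAT). The searches for an androgen response half-site (AGAACA) and a TATA box (TATAAA) found no match in any of the 3 windows. The first window is that of the full-length PRUNE2 start (chr9:76906115-76906364, minus strand), the second that of a shorter PRUNE2 transcript (chr9:76692198-76692447, minus strand) and the third that of PCA3 (chr9:76764186-76764435, plus strand).
PRUNE2 full-length start: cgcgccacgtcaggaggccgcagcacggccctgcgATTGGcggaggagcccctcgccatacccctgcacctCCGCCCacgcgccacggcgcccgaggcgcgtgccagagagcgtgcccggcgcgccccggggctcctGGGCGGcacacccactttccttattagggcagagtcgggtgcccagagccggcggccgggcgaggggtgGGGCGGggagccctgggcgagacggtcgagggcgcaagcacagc
PRUNE2 internal start: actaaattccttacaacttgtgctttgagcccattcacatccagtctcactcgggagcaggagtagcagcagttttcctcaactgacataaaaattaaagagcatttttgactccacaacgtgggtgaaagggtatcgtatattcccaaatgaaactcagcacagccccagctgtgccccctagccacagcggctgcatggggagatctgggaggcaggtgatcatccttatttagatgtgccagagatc
PCA3 start: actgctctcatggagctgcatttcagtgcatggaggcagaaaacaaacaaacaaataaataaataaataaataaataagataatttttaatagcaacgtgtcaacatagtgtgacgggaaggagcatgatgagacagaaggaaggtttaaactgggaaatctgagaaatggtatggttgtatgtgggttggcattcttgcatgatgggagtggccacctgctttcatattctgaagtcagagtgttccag

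The windows differed in base composition. The full-length PRUNE2 window had a GC content of 76.4% with 32 CpG dinucleotides, 3 GC boxes and 1 CCAAT box. The internal PRUNE2 window had a GC content of 48% with 4 CpG, and the PCA3 window one of 39.2% with 2 CpG. Over all 35116 promoter windows of the same length, the median GC content was 58% and the median number of CpG was 11. A GC box was present in 42.6% of all windows, a CCAAT box in 32%, an androgen response half-site in 12.4% and a TATA box in 10.7%. These matches describe the letters of the windows only. A missing match says nothing about binding of a factor.

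The level of PRUNE2 was high in parental cells and low in resistant cells. Levels are in FPKM, fragments per kilobase of transcript normalized to sequencing depth. PRUNE2 measured 245, 260 and 266 FPKM in parental and 8.69, 8.60 and 7.87 FPKM in resistant libraries. All resistant libraries lay far below all parental libraries, and the libraries of each group lay close together. The mean was 257 ± 10.5 FPKM in parental cells and 8.38 ± 0.452 FPKM in resistant cells (SD, n = 3 each), a level 30.7-fold higher in parental cells. On the log2(FPKM + 0.1) scale the difference, resistant minus parental, was -4.92 ± 0.08 (SE). In bulk RNA, fewer cells with the transcript and less transcript per cell cannot be told apart.

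Among the 24468 genes that averaged 0.1 FPKM or more, the log2 difference of PRUNE2 ranked 149 from the lowest. PRUNE2 ranked 16 among the 1237 genes with at least 100 FPKM in parental cells, where short RNAs such as MIR99A and VTRNA1-2 stood before it. Among the 1195 genes with at least 100 FPKM in parental cells and 300 exonic bases, PRUNE2 ranked 4, after SPON2, KLK3 and ADAMTS1. PRUNE2 was chosen for this fall, and the limit of 100 FPKM applies to parental cells only, which favours genes that fall. These ranks therefore only describe the choice. SPON2 had a log2 difference of -6.64, KLK3 one of -5.85 and ADAMTS1 one of -5.04, and PAGE1, just behind PRUNE2, had one of -4.88. By parental level PRUNE2 stood at rank 356 of all 58024 genes, and by resistant level at rank 9383. It made up between 0.0283% and 0.0325% of the summed FPKM of the parental libraries and between 0.000924% and 0.0011% of that of the resistant libraries. The residual PRUNE2 level was still well above the detection limit: at the depths estimated below it stood for about 1428 to 1853 reads per resistant library on the canonical transcript.

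PCA3 was at the edge of detection in both kinds of cells. It measured 0.0200, 0.0144 and 0.0658 FPKM in parental and 0.0157, 0 and 0 FPKM in resistant libraries. The groups overlap, since the resistant library with a value lies between 2 of the parental ones. The mean was 0.0334 ± 0.0282 FPKM in parental cells and 0.00524 ± 0.00907 FPKM in resistant cells (SD, n = 3 each). The table gives no read counts. Depth was therefore estimated from genes of a single transcript and 600 to 8000 bases with a value above 0. The most frequent value, scaled by transcript length, was assumed to be that of a lone read, with fragments assumed to be 200 bases. The estimate came to between 13300000 and 20700000 reads per library. At that depth 1 read on the 4-exon PCA3 transcript is worth between 0.0130 and 0.0201 FPKM, and 3 reads between 0.0390 and 0.0604 FPKM. The PCA3 values thus correspond to about 1.5, 1.1 and 3.3 reads in the parental libraries and to about 1 read in the first resistant library. Both groups were at about the level of 3 reads or less, so no fold change is given, and a difference in PCA3 was not detectable at this depth. PCA3 did not reach the mean of 0.1 FPKM needed for the test across genes. Of the other annotated RNAs inside PRUNE2, PCA3_2 was listed at 0.143 FPKM in 1 parental library and at 0 in the other libraries, and AL359314.1 at 0 in all.

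**Figure D1:**
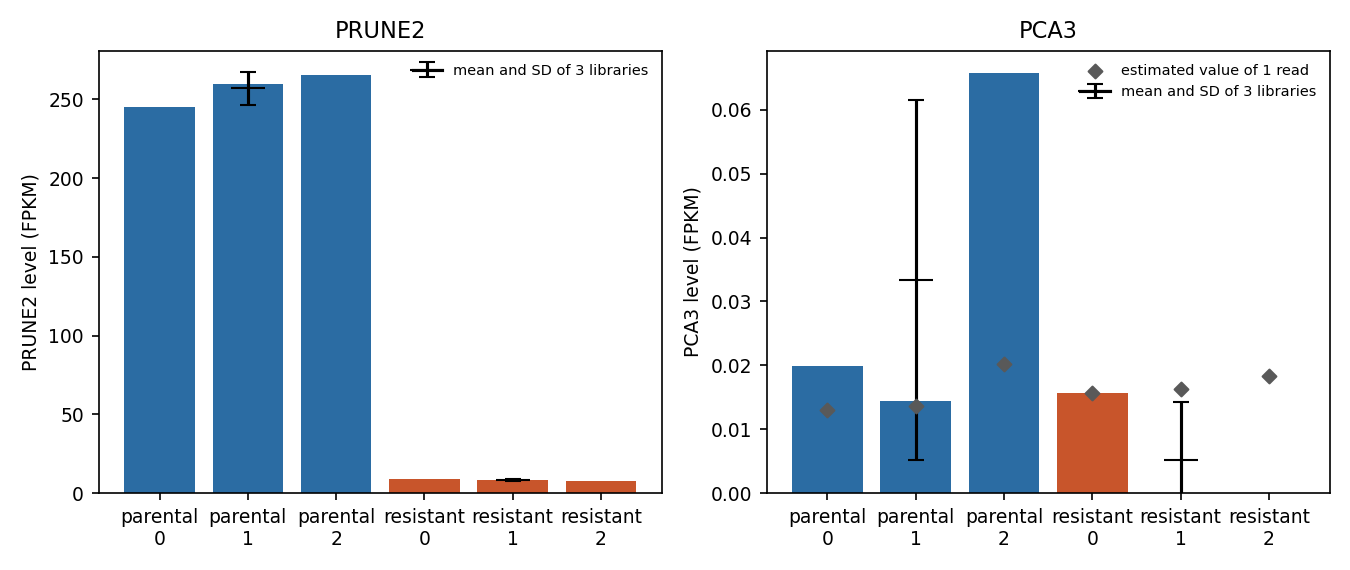
Level of PRUNE2 (left) and PCA3 (right) in FPKM in each of the 3 parental (blue) and 3 resistant (orange) libraries, on linear axes that differ in scale, with the mean and SD of each group in black. The diamonds give the estimated value of 1 read on the 4-exon PCA3 transcript. PRUNE2 lies at 245 to 266 FPKM in parental and 7.87 to 8.69 FPKM in resistant libraries, while PCA3 stays under 0.07 FPKM in all 6.

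Because PCA3 stayed near 0, its ratio to PRUNE2 followed PRUNE2. The log2 ratio of PCA3 to PRUNE2, with 0.1 FPKM added to each, was -10.93 ± 0.26 in parental and -6.34 ± 0.10 in resistant cells (SD, n = 3 each), a difference of 4.60. PCA3 and KLK3 are the RNAs read against each other in urine, but the ratio here is one of FPKM values with 0.1 FPKM added to each. The log2 ratio of PCA3 to KLK3 was -14.24 ± 0.15 in parental and -8.71 ± 0.05 in resistant cells, a difference of 5.53. Both differences are set by the denominator and by the added 0.1 FPKM, and neither says that PCA3 rose. KLK3 itself measured 2489, 2321 and 2857 FPKM in parental and 46.8, 43.5 and 41.8 FPKM in resistant libraries. The log2 ratio of PRUNE2 to KLK3 was -3.31 ± 0.14 in parental and -2.38 ± 0.05 in resistant cells, so the 2 mRNAs did not keep one ratio, and KLK3 was lower by the larger factor.

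Across the genome, PRUNE2 and PCA3 are 1 of 3527 pairs in the table in which a long non-coding RNA gene lies wholly inside a protein-coding gene on the other strand. Of the 173 pairs whose host gene had at least 100 FPKM in parental cells, 96 (55.5%) had a nested RNA under 0.1 FPKM, as PCA3 had. In the 917 pairs with both genes tested, the 2 log2 differences had the same sign in 57.3%. Both genes passed the threshold in 193 pairs. Of these, 61 pairs had both genes lower in resistant cells, 78 had both higher and 54 had one of each. In the 44 tested pairs whose host was lower by at least 2 log2 units, the nested RNA was lower in 17 (38.6%) and higher in 4, beside 22.3% lower and 22.1% higher among all genes tested. Pairs of overlapping genes can share reads where strand is not used, so these counts are a description of the table.

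**Figure D2:**
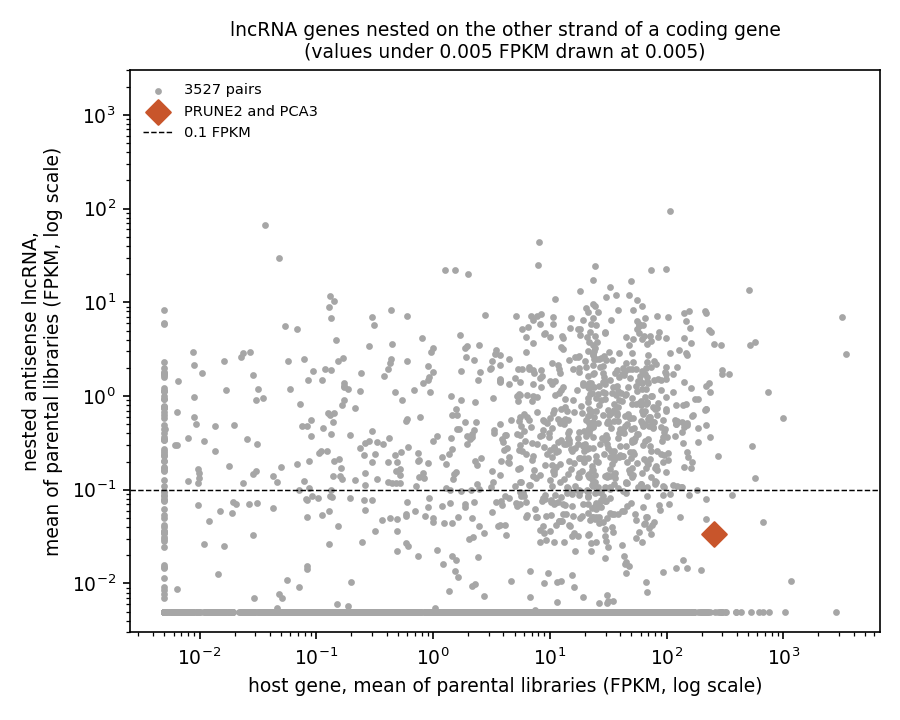
Mean parental level of the host gene (horizontal) against that of the nested antisense RNA (vertical), both in FPKM on log axes, for 3527 pairs, with values under 0.005 FPKM drawn at 0.005. The PRUNE2 and PCA3 pair (orange diamond) combines a host at 257 FPKM with a nested RNA at 0.0334 FPKM, under the dashed line at 0.1 FPKM like 96 of the 173 pairs with a host at 100 FPKM or more.

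The genes around PRUNE2 were compared to see whether its level stood alone in the locus. Differences across genes were tested with limma on log2(FPKM + 0.1), with Benjamini-Hochberg adjustment over the 24468 genes and a threshold of 0.05. The p-values measure only the spread between these libraries, which may be technical. By this test 44.4% of all genes passed, so a neighbour that passes is common. The window of 2 Mb on either side of PRUNE2 held 50 other genes of the table, of which 17 were tested. Of these, 7 were lower, 3 were higher and 7 did not pass, so that 58.8% passed, and in 10 the groups did not overlap, beside 54.8% of all genes tested. The median log2 difference of the 17 was -0.94, beside -0.05 over all genes. That median is the value of RP11-216F5.1, a pseudogene listed at 0.604 FPKM in parental replicate 1 and at 0 in every other library. Within 1 Mb 7 genes were tested, of which 4 were lower and 1 was higher, with a median of -1.35. Within 5 Mb 13 of 30 genes passed, with a median of -0.37.

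VPS13A, which encodes a lipid transfer protein at membrane contact sites, starts 271 kb upstream of PRUNE2 on the other strand. It measured 112, 135 and 153 FPKM in parental and 23.9, 19.0 and 23.8 FPKM in resistant libraries. All resistant libraries were below all parental ones, with a log2 difference of -2.58 ± 0.15 (SE) and a limma adjusted p of 5.23e-05. GCNT1, the enzyme that starts core 2 branches of O-glycans, lies beyond the PRUNE2 3′ end. It measured 21.7, 20.8 and 17.1 FPKM in parental and 1.53, 1.58 and 3.78 FPKM in resistant libraries. Resistant replicate 2 was the highest of its group but still far under the parental ones, with a log2 difference of -3.18 ± 0.35 (SE) and a limma adjusted p of 0.00067. In GENCODE v44 some GCNT1 transcripts run on the plus strand into the PRUNE2 3′ end, while the GCNT1 locus in the table ends at position 76507416, short of PRUNE2.

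The G protein genes GNA14 and GNAQ, which encode alpha subunits of the Gq family and lie next to each other beyond VPS13A, went opposite ways. GNA14 measured 1.37, 0.532 and 1.63 FPKM in parental and 0.226, 0.0900 and 0.305 FPKM in resistant libraries, a log2 difference of -2.00 ± 0.54 (SE; limma adjusted p = 0.0238). GNAQ measured 7.71, 3.53 and 7.79 FPKM in parental and 15.0, 17.0 and 15.8 FPKM in resistant libraries, a log2 difference of 1.40 ± 0.31 (SE; limma adjusted p = 0.0117). Parental replicate 1 was the lowest of its group for both genes, and neither gene's groups overlap. Each call depended on which library was left out. With 1 library left out, the log2 difference was between -2.45 and -1.69 for GNA14 and between 1.03 and 1.59 for GNAQ. The values of -2.45 and 1.03 were those without parental replicate 1. For GNA14 the limma adjusted p was 0.0844 without parental replicate 0, 0.0806 without parental replicate 2, 0.0708 without resistant replicate 0 and 0.0770 without resistant replicate 1. For GNAQ it was 0.0550 without resistant replicate 0, 0.0568 without resistant replicate 1 and 0.0549 without resistant replicate 2.

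Of the neighbours toward the PRUNE2 3′ side, RFK, the riboflavin kinase gene, measured 29.6, 24.4 and 34.2 FPKM in parental and 9.62, 17.2 and 8.85 FPKM in resistant libraries (log2 difference -1.35, limma adjusted p = 0.0079). OSTF1, an SH3 domain adaptor gene, measured 28.3, 23.4 and 29.4 FPKM in parental and 10.8, 14.7 and 11.7 FPKM in resistant libraries (log2 difference -1.12, limma adjusted p = 0.00156). In both genes parental replicate 1 was lowest and resistant replicate 1 highest, and the groups stayed apart. NMRK1, the nicotinamide riboside kinase gene, rose from 9.20 ± 1.61 to 13.7 ± 1.61 FPKM (SD, n = 3 each; limma adjusted p = 0.0345), and the call was lost without parental replicate 1 (0.0577), parental replicate 2 (0.0628), resistant replicate 0 (0.0564), resistant replicate 1 (0.0959) or resistant replicate 2 (0.114). With the replicate number as a block its adjusted p was 0.0578. RORB, a nuclear receptor gene, measured 0.0184, 0.0112 and 0 FPKM in parental and 0.391, 0.363 and 0.380 FPKM in resistant libraries and passed as higher (limma adjusted p = 0.00579), with no fold given because the parental values are near 0.

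On the PRUNE2 5′ side, PSAT1, which acts in serine synthesis, measured 122, 123 and 120 FPKM in parental and 69.0, 74.7 and 68.3 FPKM in resistant libraries (log2 difference -0.79, limma adjusted p = 0.000204). CEP78, a centrosomal protein gene, fell from 21.0 ± 1.03 to 16.5 ± 1.10 FPKM (SD, n = 3 each; limma adjusted p = 0.0254). The CEP78 call was lost without parental replicate 0 (0.0627) or parental replicate 2 (0.0552), and its adjusted p was 0.0755 with the replicate block. The neighbours that did not pass were C9orf40, CARNMT1, RP11-197P3.5, uc_338, RPSAP9, DNAJB5P1 and RP11-216F5.1, with log2 differences between -1.95 and 0.17. DNAJB5P1, a pseudogene at 25.95 kb upstream and the tested gene nearest to the PRUNE2 start, stood at 0.171 ± 0.0807 FPKM in parental and 0.0335 ± 0.0580 FPKM in resistant cells. Its limma adjusted p was 0.154, and it passed as lower without resistant replicate 0 (0.0309) and after quantile normalization (0.0282). The other 33 genes of the window were below 0.1 FPKM on average, among them PCA3 and PCSK5.

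**Figure D3:**
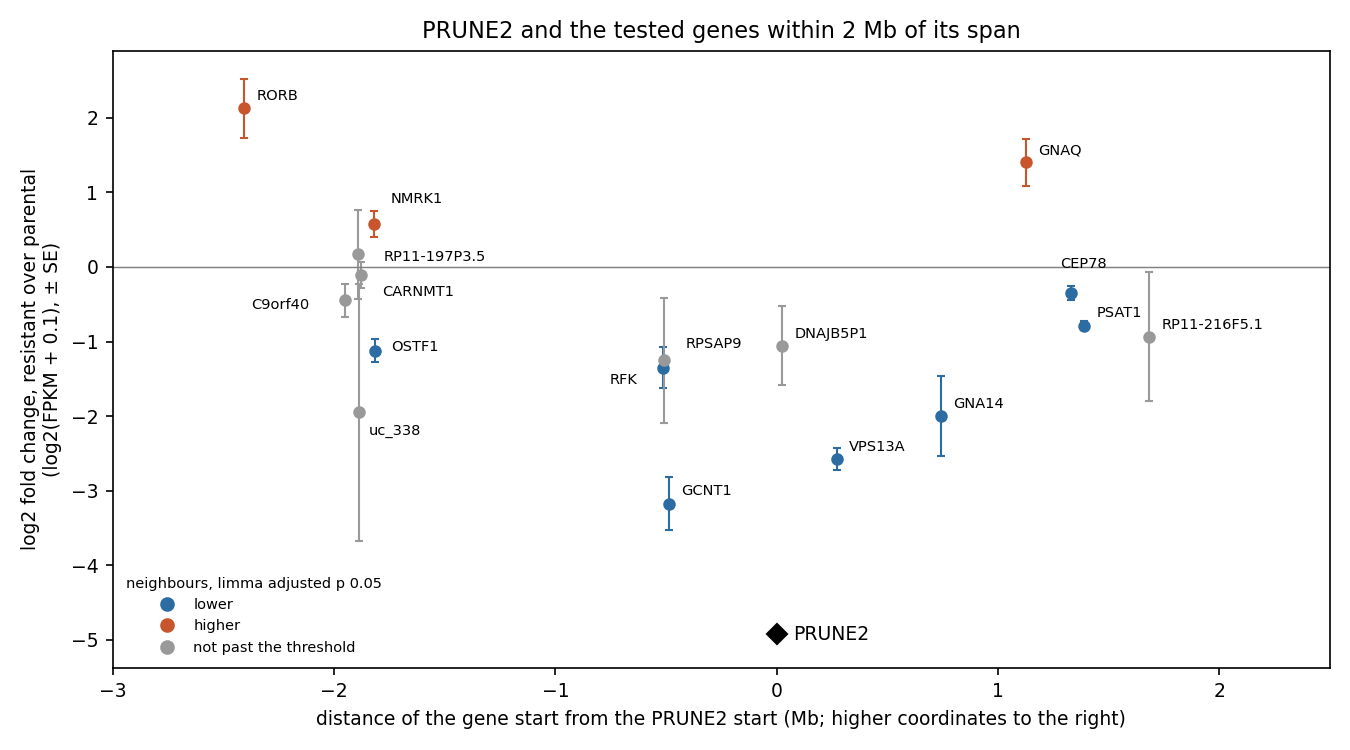
Log2 difference, resistant minus parental, on the log2(FPKM + 0.1) scale with its SE for PRUNE2 (black diamond) and the 17 tested genes in the window, against the distance of each gene start from the PRUNE2 start in Mb. PRUNE2 is transcribed toward the left, blue genes passed as lower, orange genes as higher and grey genes did not pass. PRUNE2 lies at -4.92, GCNT1 at -3.18 and VPS13A at -2.58, while GNAQ, NMRK1 and RORB lie above 0.

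The other genes that encode BCH or prune domains went in both directions. Of the 6 family members besides PRUNE2, all were tested, 3 were lower, 1 was higher and 2 did not pass, with a median log2 difference of -0.12. The 4 of 6 that passed stand beside 44.4% of all genes tested, with 22.3% lower and 22.1% higher. BNIP2, the founding member of the BCH group, measured 50.7, 57.9 and 48.0 FPKM in parental and 24.99, 23.8 and 23.2 FPKM in resistant libraries (log2 difference -1.11, limma adjusted p = 0.00023). ARHGAP8, which joins a BCH domain to a GTPase-activating domain, measured 30.9, 41.5 and 40.2 FPKM in parental and 16.3, 18.7 and 17.6 FPKM in resistant libraries (log2 difference -1.08, limma adjusted p = 0.00109). Both genes were about 2.2-fold (BNIP2) and 2.1-fold (ARHGAP8) higher in parental cells, with no overlap between the groups.

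ATCAY, which encodes the neuronal BCH protein caytaxin, was the family member that rose. It measured 0.0268, 0.130 and 0 FPKM in parental and 4.38, 3.95 and 4.91 FPKM in resistant libraries (limma adjusted p = 0.000191). All resistant libraries were above all parental ones, and no fold is given because the parental values are near 0. ARHGAP1, a widely expressed GTPase-activating protein gene with a BCH domain, fell from 36.6 ± 2.32 to 28.8 ± 1.99 FPKM (SD, n = 3 each; limma adjusted p = 0.0214). That call was lost without parental replicate 0 (0.0565), resistant replicate 0 (0.0550) or resistant replicate 2 (0.0596), and its adjusted p was 0.0678 with the replicate block. PRUNE1, which shares the prune phosphatase fold, stood at 11.9 ± 1.29 FPKM in parental and 14.4 ± 1.83 FPKM in resistant cells (limma adjusted p = 0.166). BNIPL varied within both groups, from 0.225 to 1.26 FPKM in parental and from 0.287 to 1.83 FPKM in resistant libraries (limma adjusted p = 0.925).

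RhoA signalling was examined because PRUNE2 is described as acting on it. Of 30 RhoA pathway genes, 29 were tested, 9 were higher, 8 were lower and 12 did not pass, with a median log2 difference of 0.02. The 17 that passed make 58.6% of those tested, beside 44.4% of all genes. RHOA itself stood at 194 ± 29.3 FPKM in parental and 189 ± 12.7 FPKM in resistant cells (SD, n = 3 each; limma adjusted p = 0.866). The kinase gene ROCK1 stood at 15.6 ± 1.17 and 15.3 ± 1.86 FPKM (limma adjusted p = 0.875), while ROCK2 rose from 13.5 ± 1.40 to 20.0 ± 2.35 FPKM (limma adjusted p = 0.0133).

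MCF2L, a guanine nucleotide exchange factor for small GTPases, had the largest fall of the list. It measured 18.3, 21.4 and 23.5 FPKM in parental and 0.941, 0.999 and 0.808 FPKM in resistant libraries, with a log2 difference of -4.38 ± 0.17 (SE) and a limma adjusted p of 1.48e-05. ARHGDIA, a GDP-dissociation inhibitor of small GTPases, measured 533, 459 and 562 FPKM in parental and 243, 244 and 272 FPKM in resistant libraries (log2 difference -1.03, limma adjusted p = 0.000319). The groups of both genes stood clear of each other. LIMK1, a kinase that inactivates cofilin, fell from 29.4 ± 1.94 to 17.7 ± 1.13 FPKM (SD, n = 3 each; limma adjusted p = 0.00125).

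Among the RhoA pathway genes that rose, RND2, an atypical small GTPase gene, measured 0, 0 and 0.0188 FPKM in parental and 3.67, 3.21 and 3.43 FPKM in resistant libraries (limma adjusted p = 6.87e-05). ARHGEF2, a microtubule-associated RhoA exchange factor, measured 14.4, 16.1 and 14.8 FPKM in parental and 32.4, 36.3 and 37.1 FPKM in resistant libraries (log2 difference 1.22, limma adjusted p = 0.00017). LIMK2 rose from 35.4 ± 2.65 to 59.0 ± 3.32 FPKM, so the 2 cofilin kinase genes of the list moved in opposite directions (SD, n = 3 each; limma adjusted p = 0.000872). RTKN, the RhoA effector rhotekin, rose from 22.9 ± 1.78 to 37.9 ± 1.84 FPKM (limma adjusted p = 0.00113).

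The RNA editing enzymes were examined because editing of a PCA3 and PRUNE2 duplex has been proposed. ADAR measured 83.6, 82.2 and 72.2 FPKM in parental and 115, 113 and 128 FPKM in resistant libraries, with no overlap between the groups. It was higher by 0.58 ± 0.09 on the log2 scale (SE; limma adjusted p = 0.00235). ADARB1 measured 22.1, 26.5 and 27.9 FPKM in parental and 19.5, 16.9 and 36.8 FPKM in resistant libraries (limma adjusted p = 0.723), and resistant replicate 2 was the highest of all 6 libraries. ADARB2 did not exceed 0.0354 FPKM and was not tested. Levels of these mRNAs do not measure editing, which the table does not hold.

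**Figure D4:**
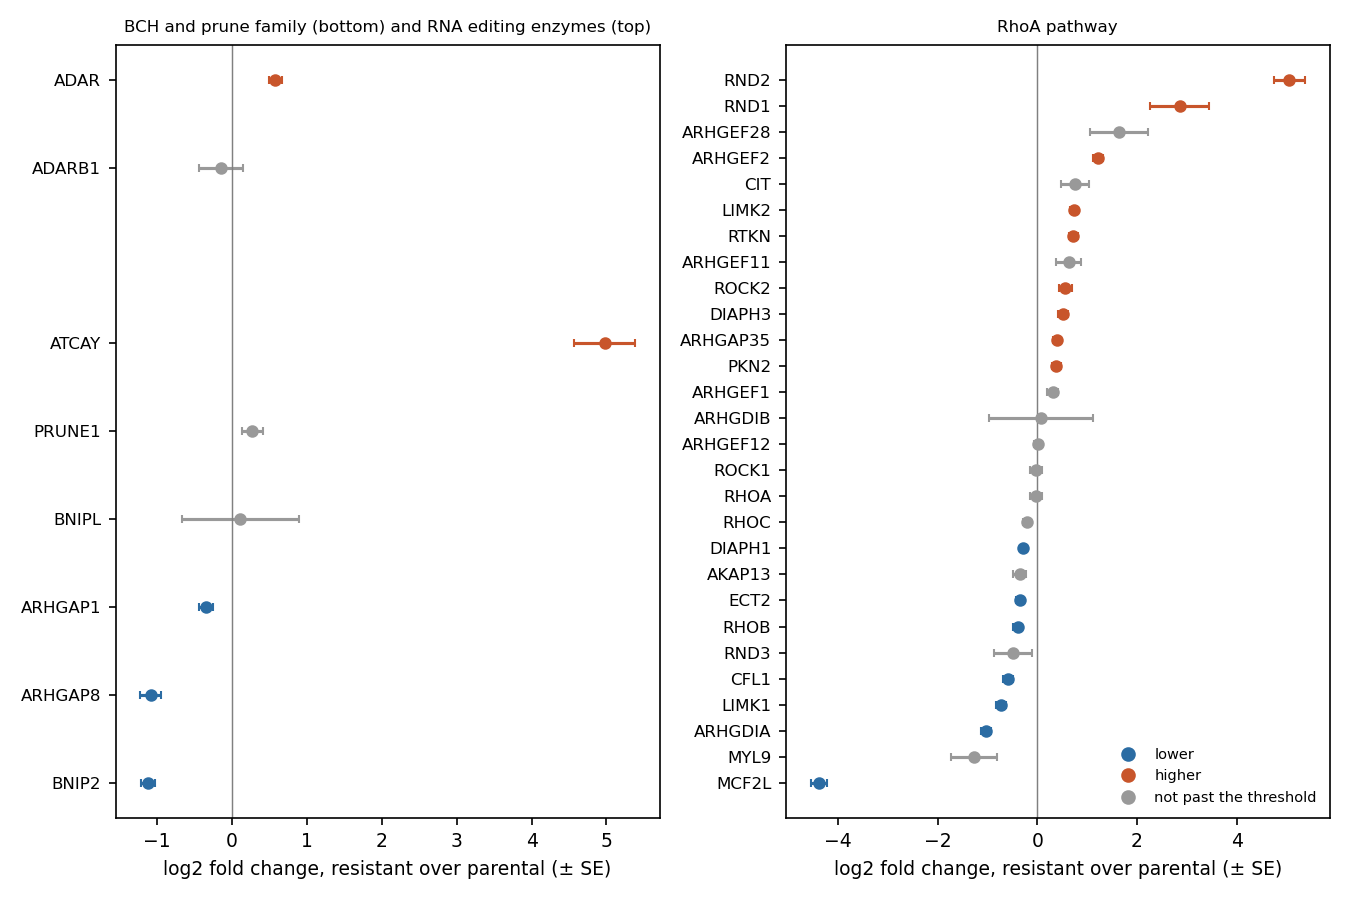
Log2 difference, resistant minus parental, with its SE on the log2(FPKM + 0.1) scale for the tested BCH and prune family genes and RNA editing enzymes (left) and RhoA pathway genes (right), with blue for genes that passed as lower, orange for higher and grey for not passed at a limma adjusted p of 0.05. Of the 29 tested RhoA pathway genes, 1 that fell is not drawn. In that list 9 genes rose and 8 fell, with MCF2L at -4.38. RND2 is drawn at 5.06, but its parental values are near 0, so the size of this difference depends on the added 0.1 FPKM. Adding 1 FPKM instead gave 2.14 for RND2, and adding 0.01 FPKM gave 7.92.

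Since enzalutamide is an antiandrogen and PCA3 is described as androgen responsive, genes of the androgen response were set beside the pair. Of 30 genes, 24 were lower, 2 were higher and 4 did not pass, so that 86.7% passed, beside 44.4% of all genes tested and 22.3% lower. Their median log2 difference was -1.77, beside -0.05 over all genes. KLK3 had a log2 difference of -5.85 ± 0.09 (SE; limma adjusted p = 1.1e-06). KLK2, another kallikrein gene, fell from 462 ± 36.9 to 81.9 ± 2.81 FPKM, and the protease gene TMPRSS2 fell from 258 ± 10.5 to 64.8 ± 4.90 FPKM (SD, n = 3 each; limma adjusted p = 7.22e-06 and 1.55e-05). FKBP5, a chaperone gene, fell from 111 ± 5.20 to 79.1 ± 5.66 FPKM (limma adjusted p = 0.00319). The genes that rose were KLK4 and HPGD, named after their values were seen. The log2 difference of PRUNE2, -4.92, for which it was chosen, lay between those of KLK3 and KLK2 (-2.49). It was far below the median of the list.

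For the check of the labelled cells, 10 prostate luminal markers and 10 markers of other cell types were read. The luminal markers summed to between 4285 and 5171 FPKM in parental and between 1357 and 1443 FPKM in resistant libraries. Of the 10, 7 were lower and 2 were higher, beside 22.3% lower and 22.1% higher among all genes tested. The markers of other cell types summed to between 8.95 and 11.97 FPKM in parental and between 10.4 and 16.6 FPKM in resistant libraries. Of these 10, 6 were tested, 2 were higher (ACTA2 and DCN), 1 was lower (VWF) and 3 did not pass. So 50% of those tested passed, near the 44.4% of all genes. KRT5, TP63, DCN, PTPRC and PECAM1 were listed at 0 in all parental libraries. In resistant cells DCN stood at 3.92 ± 0.378 FPKM (SD, n = 3). The other 4 were above 0 only in resistant replicate 0, with a group mean of at most 0.0755 FPKM. The part of these markers in the PRUNE2 levels was not tested.

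The genes whose pattern over the 6 libraries was most like that of PRUNE2 were looked for among the 16382 genes averaging 1 FPKM or more. Likeness was the Euclidean distance between log2(FPKM + 0.1) profiles, each centred on its own mean. The nearest were ADAM28 (distance 0.228), H2AFJ (0.281), TUBA3E (0.290), NUDT16P1 (0.326) and PAGE1 (0.339). H2AFJ, a variant histone gene, measured 527, 475 and 503 FPKM in parental and 15.8, 18.7 and 17.1 FPKM in resistant libraries. PAGE1, a cancer-testis gene, measured 462, 431 and 509 FPKM in parental and 13.97, 18.4 and 15.3 FPKM in resistant libraries. ADAM28 and TUBA3E were near 0 in resistant cells, at means of 0.0028 and 0.0465 FPKM, so their likeness depends on the added 0.1 FPKM. TUBA3E has near-identical copies among the alpha tubulin genes, and its values are uncertain for that reason. None of the 5 lies on chromosome 9.

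The profile of PCA3 spanned 0.73 log2 units over the 6 libraries, beside 5.06 for PRUNE2, since the added 0.1 FPKM exceeds each PCA3 value. Its nearest profiles were therefore nearly flat ones. They were ZSCAN23 (distance 0.102), KANTR (0.131), B4GALT7 (0.145), SNX12 (0.151) and MT-CO1 (0.160). ZSCAN23, the nearest, had means of 8.77 FPKM in parental and 6.62 FPKM in resistant cells. These matches describe a profile of about 1 to 3 reads and carry little information on PCA3.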

How the data were processed

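RNA-Seq of 3 C4-2B parental and 3 C4-2B enzalutamide resistant libraries was analysed. The authors aligned single-end reads with STAR to GRCh38 and the GENCODE annotation and made the deposited FPKM values with Cufflinks. The submitters' processing notes instead name Trimmomatic 0.27, FastQC 0.10.1 and the mouse build mm10, while the table holds human gene identifiers. The table names no unit, and FPKM was inferred from the methods and from fractional, unbounded values. Column sums ran from 792975 to 870110 FPKM, with 21956 to 27153 genes above 0.

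The groups were tested two-sided by limma 3.58.1 (R 4.3.3) with a mean-variance trend. Input values were log2(FPKM + 0.1) of the 24468 genes that averaged 0.1 FPKM or more. Such a difference understates the change of low genes. The fit was tested on simulated data. Positions, gene types and lengths came from GENCODE v44, matched by gene identifier, and the 4 RefSeq windows of both genes were identical to the genome given. Python 3.11.15, pandas 2.3.3 and matplotlib 3.10.9 were used.

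The members and gene lists were chosen with earlier results of these data known. The genes named were all tested neighbours, the BCH and prune family, the RNA editing enzymes, the 4 RhoA pathway genes with the smallest adjusted p in each direction, 5 genes of the androgen response, and the 5 nearest profiles for each of PRUNE2 and PCA3. Genes outside this rule, such as RHOA, the ROCK genes and the marker genes, were chosen after their values were seen. Alternatives covered the pseudocount, the filter, the scaling, the variance trend, the replicate number as a block, each library left out and the window around PRUNE2. A few genes that fall under this rule are left out of the text. The authors' own comparisons were not used.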

Additional observations from a re-analysis of the deposited data

How the results depend on the processing

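The PRUNE2 log2 difference of -4.92 was -4.78 with a pseudocount of 1 FPKM and -5.07 after scaling to the total over genes of at least 300 bases, and between -4.96 and -4.88 with 1 library left out. For PCA3, for which no fold change is given because its values stand for about 1 to 3 reads, the difference of means on the log2(FPKM + 0.1) scale was -0.33. It became -0.040 with a pseudocount of 1 FPKM, -1.48 with 0.01 FPKM and -0.65 after quantile normalization, and was between -0.43 and -0.16 with 1 library left out (the smallest without parental replicate 2), so it moved with the pseudocount, the normalization and the libraries used. The change of the log2 PCA3 to PRUNE2 ratio of 4.60 became 3.46 with a pseudocount of 0.01 FPKM and 4.25 after quantile normalization. The change of the log2 PCA3 to KLK3 ratio of 5.53 became 5.78 with a pseudocount of 1 FPKM, 4.38 with 0.01 FPKM, 5.22 after quantile normalization and 5.66 after scaling to genes of at least 300 bases. That scaling moved the median of all genes from -0.05 to -0.18. Within 1 Mb of PRUNE2, 5 genes passed, beside 10 within 2 Mb and 13 within 5 Mb. With 1 library left out, 7 to 9 neighbours, 3 to 4 family genes, 17 to 20 RhoA pathway genes, 23 to 25 androgen response genes and 9324 to 10152 genes in all passed, the last beside 10868 with all libraries. The share of nested pairs with the same sign was 51.7% when only genes averaging 1 FPKM or more were kept. Of the 38 genes that the naming rule covers, 6 lost a call under at least 1 alternative, DNAJB5P1 gained one under 2 alternatives, and none reversed a called direction.

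Samples with the same replicate number did not deviate together (correlations of deviations 0.008, 0.017 and -0.003), so the numbers were not taken to pair the samples. With the replicate block, 9463 genes passed in all, 8 neighbours, 3 family genes and 17 RhoA pathway genes, and the PRUNE2 difference was unchanged at -4.92. The table holds no counts, so no test on counts could be run, and PCA3 at about 1 to 3 reads is below what this depth resolves.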
